A study of Homo sapiens with 6 samples.

Results

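Aminoacyl-tRNA synthetases were examined in HCT116 cells, a human colorectal carcinoma line, after transfection of miR-8485 mimics. The 37 genes, 21 for cytosolic enzymes and 16 for mitochondrial enzymes, were picked by symbol from the 58735 genes listed. The set was chosen with earlier results of these data known. Mitochondrial enzymes carry the suffix 2 in their symbols (IARS2 beside IARS). RNA-seq was run on 3 libraries of control cells (CTR) and 3 of cells that received 50 nM of the mimics, collected 48 h after transfection with the lipid reagent DMRIE-C. The genotype label reads WT for CTR and names only the mimics for the other group, and no further agent or allele was given. A mimic is a synthetic RNA that acts as the mature microRNA. The CTR cells were transfected with a control whose identity and amount are not given in the sources used here. The replicates were described as independent, and the single cell line limits the data to that genetic background.

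These enzymes attach each amino acid to its own tRNA, the step that matches the genetic code to the protein. Human cells hold a set for the cytosol and a set for the mitochondrion, both encoded in the nucleus, with GARS and KARS making enzyme for both compartments. The enzymes belong to class I or class II according to the fold of the catalytic domain. Several cytosolic enzymes assemble with the scaffold proteins AIMP1, AIMP2 and EEF1E1 into the multi-synthetase complex. Many cytosolic synthetase genes are known targets of the transcription factor ATF4, which responds to shortage of amino acids. A microRNA pairs through its seed, bases 2 to 8, with words in the 3′ UTR of messenger RNAs.

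Each library held 17473874 to 18480047 fragments on listed genes. The chi-square per gene between fragment counts was 2.89 to 12.5 within groups and 75.5 to 86.7 between groups, and no library was a copy of another. CTR replicate 1 stood apart within its group, at 12.5 from CTR replicate 2 and 9.97 from CTR replicate 3. The other pairs within groups had 2.89 to 4.31. The 6 epithelial markers reached at least 15.5 FPKM in every library. Among them KRT8, KRT18 and KRT19 were lower in miR-8485 (limma log2 fold changes -0.62, -0.97 and -0.58), CDX2 was higher (0.81), and EPCAM and CDH1 did not pass the test. Of 5 blood and fibroblast markers, PTPRC, CD3E, COL1A2 and DCN were at or below 0.00603 FPKM in every library, and COL1A1 was 4.05 to 6.40 FPKM. The part of these marker differences in the synthetase values was not tested. The values are FPKM, fragments scaled to the length of the gene and the total of the library, so they compare genes per length and are relative to each library's total. Less RNA per cell and fewer expressing cells cannot be told apart in such bulk libraries.

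The synthetase genes moved in both directions, and the greatest change was a loss of IARS, the isoleucyl-tRNA synthetase of the cytosol. Genes were called upregulated or downregulated at an adjusted p under 0.05 by limma on log2(FPKM + 0.1). Of the 37 genes, 36 passed the filter of a mean FPKM of at least 1, and the exception was SARS2, the mitochondrial seryl-tRNA synthetase. Upregulation was called for 16 of the 36 (44.4%), against 29.1% of all 12349 genes tested. Downregulation was called for 11 (30.6%), against 30.5% of all genes tested. Together 27 synthetase genes (75.0%) passed the test, against 59.6% of all genes tested. The median level in CTR was 16.7 FPKM for the 37 genes and 6.11 FPKM for all genes tested. The part of expression level in these shares was not tested. A called change of at least 1 on the log2 scale occurred in 8.07% of all genes tested and in 1 synthetase gene, IARS. The median absolute log2 fold change was 0.27 for the synthetase genes and 0.33 for all genes tested. Every called synthetase gene had groups of libraries that did not overlap. The groups did not overlap, with miR-8485 above CTR, for 32.5% of all genes tested, and with miR-8485 below CTR for 34.0%. The standard error of a called synthetase gene was at most 0.09 and the smallest called change was 0.16, both on the log2 scale. A call requires a change that is large against its standard error, so these values do not measure repeatability. Of the 27 calls, 23 held in every fit with a library left out. Rescaling the FPKM to TPM, which gives every library the same total, shifted the median change of all genes from -0.0041 to -0.12 (log2). On that scale 7 of the upregulated genes (EPRS, FARSB, HARS2, KARS, NARS2, VARS and YARS2) no longer passed the test, and all 11 downregulated genes did. This left 6 cytosolic and 3 mitochondrial genes up. Of all 12349 genes tested, 2613 were up and 4725 down on the TPM scale, against 3593 and 3769 before. The share of synthetase genes called up thus lay nearer that of all genes tested, and the share called down lay below it.

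**Figure D1:**
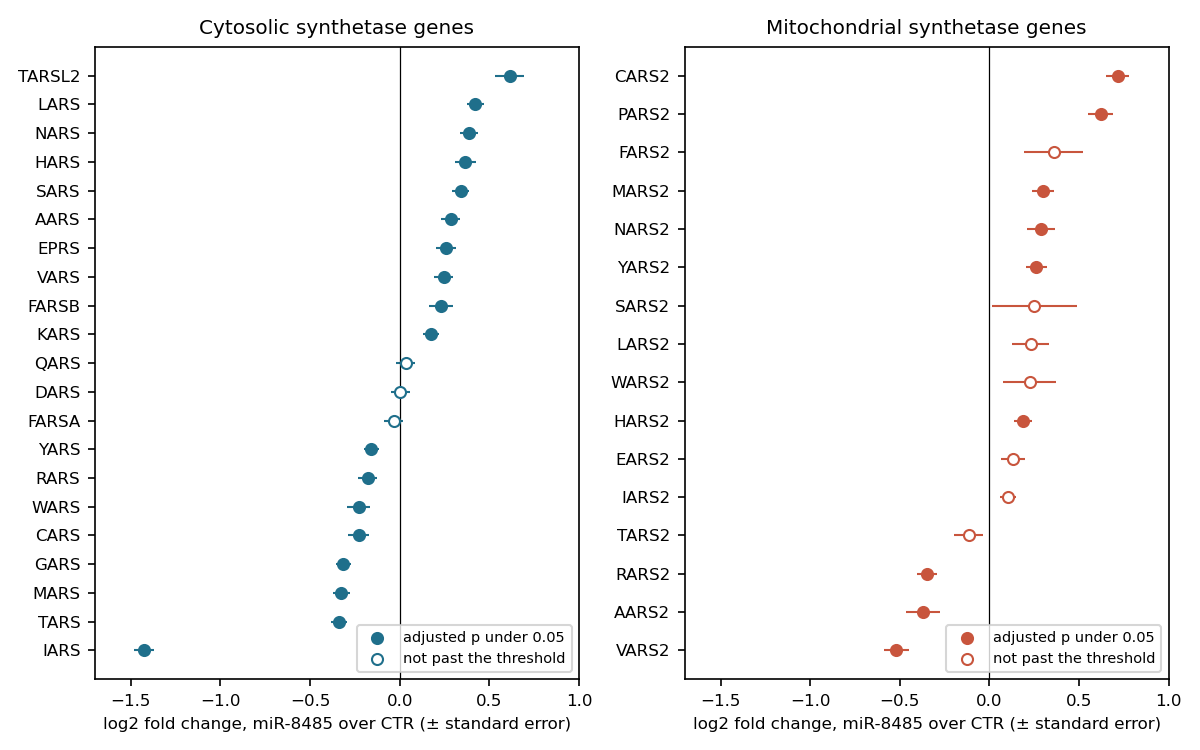
Log2 fold change of each synthetase gene, miR-8485 against CTR, from limma, with bars of 1 standard error. Cytosolic and mitochondrial genes are apart and differ in color, with filled points for called genes and open points for the others. IARS stands at -1.43, and the other genes lie between -0.52 and 0.71.

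IARS measured 36.98, 42.2 and 39.1 FPKM in CTR and 14.4, 14.4 and 14.9 FPKM in miR-8485. All 3 mimic libraries lay far below the lowest control library and scattered less. The mean went from 39.5 ± 2.64 to 14.6 ± 0.288 FPKM (SD, 3 libraries per group, as for all means below). This was a fall of 63.0% (log2 fold change -1.43, standard error 0.06, limma adjusted p = 2.87e-06). Dropping any single library kept the value between -1.47 and -1.38. IARS lies on chromosome 9 (hg38, 92210207 to 92293756, minus strand).

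The seed of the mimic reads ACACACA, and the word that pairs with it in a 3′ UTR is TGTGTGT. In the 3′ UTR of the canonical transcripts (GENCODE release 44, GRCh38), 6 of the 37 synthetase genes (16.2%) held this word, against 28.9% of 10686 tested genes. The 3′ UTRs of the synthetase genes were also shorter, with a median of 478 bases against 1289. The words are shown because IARS, the gene that fell most, holds a copy. They are printed 5′ to 3′ on the strand of the gene, with the matching word in capitals:
IARS: tttccttcaggTGTGTGTaaaatatgctg
RARS: ggtttgaacacTGTGTGTttttaccaaag
FARSB: agtgtggtgtcTGTGTGTgaagctgcatt
MARS2: cctttgtgcatTGTGTGTctaagatgtct
IARS2: aaatatataTGTGTGTGTGTatctgtgga
LARS2: gaagcattggcTGTGTGTctgactccaca

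These windows lie at chr9:92210680-92210708 for IARS and chr5:168519200-168519228 for RARS. The others are chr2:222571656-222571684 for FARSB, chr2:197707382-197707410 for MARS2, chr1:220147835-220147863 for IARS2 and chr3:45548925-45548953 for LARS2. IARS2 holds 3 overlapping copies. The calls of the 6 genes were mixed, with IARS and RARS downregulated, FARSB and MARS2 upregulated, and IARS2 and LARS2 not past the threshold. Of the 31 genes without the word, 14 were upregulated, 9 were downregulated and 8 were not called. Among all genes tested, 29.1% were upregulated and 30.5% downregulated. A match describes the letters and does not show binding.

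Besides IARS, 7 cytosolic genes fell, each by far less. TARS, the threonyl-tRNA synthetase, measured 41.9, 39.8 and 42.5 FPKM in CTR and 32.4, 33.6 and 32.2 FPKM in miR-8485. All mimic libraries lay below all controls, a fall of 20.9% (log2 fold change -0.34, standard error 0.04, limma adjusted p = 0.000482). MARS, the methionyl-tRNA synthetase that also charges the initiator tRNA, measured 24.7, 25.4 and 24.3 FPKM in CTR and 19.4, 20.7 and 19.2 FPKM in miR-8485. Its groups stood apart as well (log2 fold change -0.33, standard error 0.05, limma adjusted p = 0.000757). GARS, the glycyl-tRNA synthetase of both compartments, went from 50.5 ± 1.004 to 40.6 ± 1.37 FPKM, with 49.6, 50.3 and 51.6 FPKM in CTR and 40.3, 42.1 and 39.5 FPKM in miR-8485. The mimic libraries again lay below all controls (log2 fold change -0.31, standard error 0.04, limma adjusted p = 0.000583). CARS (cysteine), WARS (tryptophan), RARS (arginine) and YARS (tyrosine) had log2 fold changes of -0.23, -0.23, -0.18 and -0.16. RARS, the highest class I gene in CTR, measured 63.9, 60.6 and 59.3 FPKM there and 51.2, 55.9 and 55.4 FPKM in miR-8485. The call for RARS was lost without miR-8485 replicate 1 and with the GC trend removed, and that for WARS without miR-8485 replicate 1 or 3. Removing the trend against gene length ended the calls of CARS, WARS and YARS.

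Upregulation was called for 10 cytosolic genes (47.6%, against 29.1% of all genes tested). TARSL2, which encodes a further threonyl-tRNA synthetase close to TARS, rose most, from 3.24, 3.49 and 3.001 FPKM in CTR to 4.87, 4.80 and 5.36 FPKM in miR-8485. The libraries of the groups did not overlap (54.5% higher, log2 fold change 0.61, standard error 0.08, limma adjusted p = 0.000471). TARS and TARSL2 thus changed in opposite directions, while the TARS level remained above that of TARSL2 in every library. LARS, the leucyl-tRNA synthetase, measured 14.4, 15.0 and 14.5 FPKM in CTR and 18.9, 19.8 and 20.2 FPKM in miR-8485. It stood higher in all mimic libraries (34.1%, log2 fold change 0.42, standard error 0.05, limma adjusted p = 0.000225). NARS, the asparaginyl-tRNA synthetase, measured 44.5, 40.0 and 43.0 FPKM in CTR and 55.3, 56.5 and 54.6 FPKM in miR-8485. The mimic libraries exceeded all controls by more than either group's spread (log2 fold change 0.38, standard error 0.05, limma adjusted p = 0.000442). HARS, the histidyl-tRNA synthetase, measured 11.9, 11.3 and 12.4 FPKM in CTR and 16.3, 15.0 and 14.7 FPKM in miR-8485. Its groups were again apart (log2 fold change 0.37, standard error 0.06, limma adjusted p = 0.00134).

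The other cytosolic rises were smaller. SARS (serine) rose from 35.1 ± 1.10 to 44.5 ± 1.74 FPKM, AARS (alanine) from 30.4 ± 1.84 to 37.1 ± 0.431 FPKM and VARS (valine) from 50.1 ± 3.13 to 59.4 ± 1.16 FPKM. EPRS, a fused enzyme for glutamate and proline, rose from 37.7 ± 2.28 to 45.0 ± 1.65 FPKM. KARS (lysine) rose from 45.9 ± 1.69 to 51.8 ± 0.554 FPKM (log2 fold change 0.17). FARSB, the beta subunit of the phenylalanyl-tRNA synthetase, rose from 31.0 ± 2.38 to 36.4 ± 1.64 FPKM. Its call (limma adjusted p = 0.0172) was lost without CTR replicate 3 or miR-8485 replicate 2. FARSA, the alpha subunit and the highest class II gene in CTR, measured 65.0, 65.5 and 61.7 FPKM in CTR and 66.2, 58.9 and 62.8 FPKM in miR-8485. Its groups overlapped (log2 fold change -0.03, standard error 0.05, limma adjusted p = 0.622). QARS and DARS also overlapped between the groups, with log2 fold changes of 0.03 and 0.0032.

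**Figure D2:**
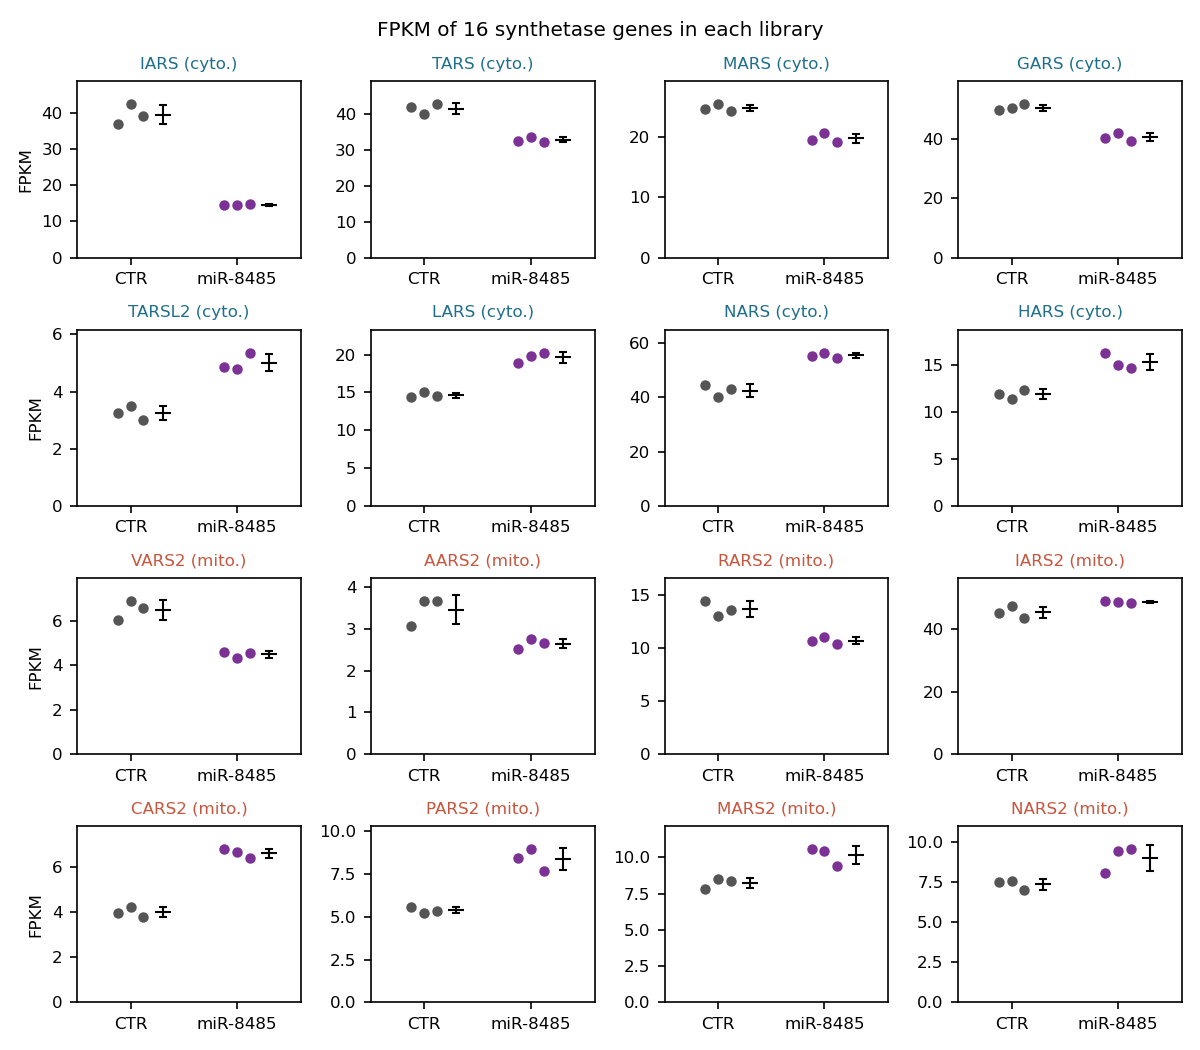
FPKM in each library for 16 synthetase genes, with points for libraries and bars for the mean ± SD of each group. The mimic libraries of IARS lie at 14.4 to 14.9 FPKM under controls at 36.98 to 42.2 FPKM, and those of CARS2 lie above their controls.

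Mitochondrial synthetase genes were expressed at lower levels, with a median of 6.21 FPKM in CTR (0.908 to 45.3) against 35.1 FPKM (3.24 to 64.1) for the cytosolic genes. Upregulation was called for 6 of the 15 that passed the filter (40.0%, against 29.1% of all genes tested), downregulation for 3 (20.0%, against 30.5%), and 6 were not called. CARS2, the cysteinyl enzyme, measured 3.97, 4.23 and 3.80 FPKM in CTR and 6.80, 6.68 and 6.40 FPKM in miR-8485. This rise of 65.6% was the greatest of all 37 genes, with groups far apart (log2 fold change 0.71, standard error 0.06, limma adjusted p = 6.84e-05). PARS2, the prolyl enzyme, measured 5.58, 5.21 and 5.34 FPKM in CTR and 8.42, 8.93 and 7.65 FPKM in miR-8485. All mimic libraries were above all controls (55.0% higher, log2 fold change 0.62, standard error 0.07, limma adjusted p = 0.000224). MARS2, the methionyl enzyme, measured 7.84, 8.48 and 8.35 FPKM in CTR and 10.5, 10.4 and 9.43 FPKM in miR-8485. The groups did not overlap (log2 fold change 0.30, standard error 0.06, limma adjusted p = 0.00481). NARS2, the asparaginyl enzyme, measured 7.49, 7.57 and 6.97 FPKM in CTR and 8.07, 9.42 and 9.54 FPKM in miR-8485. The first mimic library lay nearest the controls, and the call (log2 fold change 0.29, standard error 0.08, limma adjusted p = 0.0139) was lost without miR-8485 replicate 2 or 3. YARS2 rose from 17.4 ± 0.759 to 20.9 ± 1.21 FPKM and HARS2 from 13.1 ± 0.617 to 15.0 ± 0.192 FPKM.

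The 3 mitochondrial genes that fell were VARS2, AARS2 and RARS2, all on chromosome 6. VARS2, the valyl enzyme (30908242 to 30926459, plus strand), measured 6.01, 6.88 and 6.55 FPKM in CTR and 4.61, 4.32 and 4.53 FPKM in miR-8485. It fell by 30.8%, with no overlap (log2 fold change -0.52, standard error 0.07, limma adjusted p = 0.000473). AARS2, the alanyl enzyme (44299654 to 44313326, minus strand), measured 3.06, 3.65 and 3.66 FPKM in CTR and 2.53, 2.75 and 2.65 FPKM in miR-8485. Its first control library was the lowest of the 3, still above every mimic library (log2 fold change -0.37, standard error 0.09, limma adjusted p = 0.0108). RARS2, the arginyl enzyme (87514378 to 87590003, minus strand), measured 14.4, 13.0 and 13.6 FPKM in CTR and 10.7, 11.04 and 10.4 FPKM in miR-8485. It fell by 21.6%, again with no overlap (log2 fold change -0.35, standard error 0.06, limma adjusted p = 0.00128). VARS and FARS2 also lie on chromosome 6, with log2 fold changes of 0.25 and 0.36, the latter not past the threshold.

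Among the mitochondrial genes that were not called, IARS2 had the highest level. It measured 45.2, 47.3 and 43.5 FPKM in CTR and 49.0, 48.8 and 48.2 FPKM in miR-8485. The groups did not overlap, and the difference missed the threshold (log2 fold change 0.10, standard error 0.04, limma adjusted p = 0.0776). LARS2, FARS2, WARS2 and EARS2 had log2 fold changes of 0.23, 0.36, 0.22 and 0.13, and TARS2 had -0.11. SARS2, whose test came from a fit without the filter (31768 genes), had 41 to 77 fragments per library and 0.908 ± 0.249 against 1.09 ± 0.194 FPKM. A difference was not detected (log2 fold change 0.25, standard error 0.24, limma adjusted p = 0.517).

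As sets, the cytosolic genes had 10 upregulated (47.6%, against 29.1% of all genes tested), 8 downregulated (38.1%, against 30.5%) and 3 not called. A near even split was also that of all genes tested, with 3593 up and 3769 down. Among the mitochondrial genes tested, 6 were up, 3 down and 6 not called. The log2 fold changes had a median of 0.03 for the cytosolic genes and 0.22 for the mitochondrial genes, beside -0.0041 for all genes tested, and the cytosolic median was -0.08 on the TPM scale. Leaving out each library gave cytosolic medians of 0.000910, without CTR replicate 1, to 0.065, without CTR replicate 2. The mitochondrial medians were 0.14, without CTR replicate 3, to 0.24. The difference of the medians was -0.19 and shrank to -0.101 without CTR replicate 3 and to -0.075 with the trend against GC content removed. The summed cytosolic level was 689, 715 and 705 FPKM in CTR and 705, 717 and 704 FPKM in miR-8485, which overlap. The summed mitochondrial level was 147, 151 and 143 FPKM in CTR and 163, 163 and 158 FPKM in miR-8485. All mimic libraries were higher in the mitochondrial sum, but this was also so for the summed FPKM of all genes listed, tested or not. The mean sum rose by 9.82% for the mitochondrial genes and by 8.33% for all genes listed, and it was 0.814% higher for the cytosolic genes. The cytosolic sum was 4.69, 4.75 and 4.93 times the mitochondrial sum in CTR and 4.33, 4.40 and 4.46 times in miR-8485. These sums are given with no test, and changes of single genes offset each other in them.

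**Figure D3:**
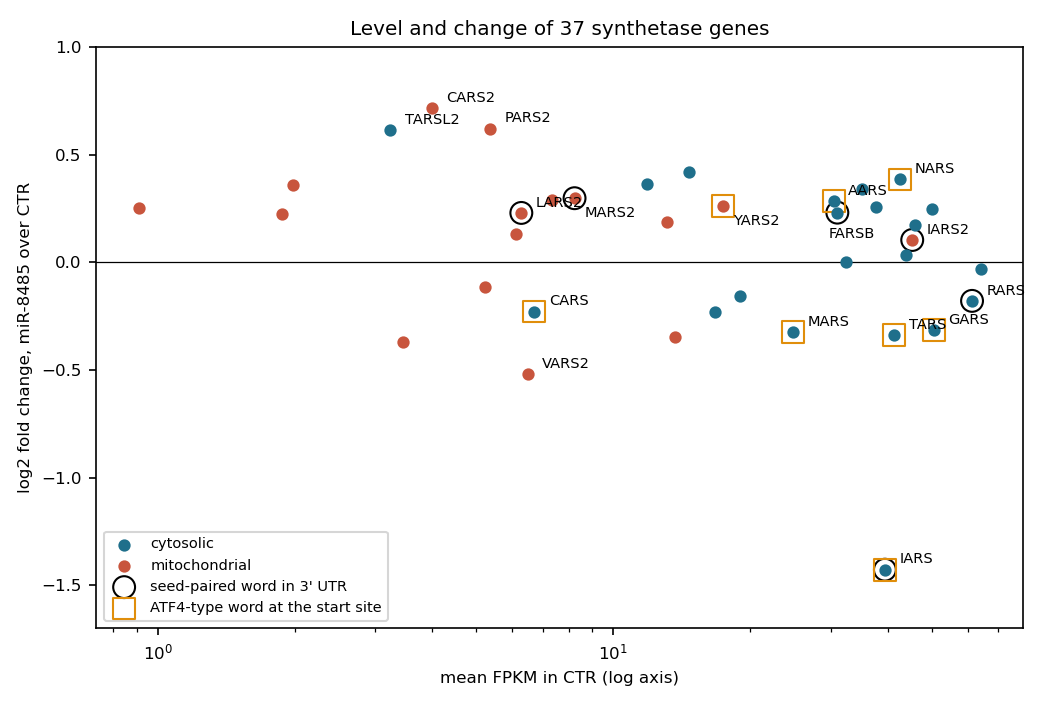
Log2 fold change of each synthetase gene against its mean level in CTR in FPKM (log axis), with cytosolic and mitochondrial genes marked apart, black rings for genes with the seed-paired word in the 3′ UTR and orange squares for genes with the ATF4-type promoter word. Mitochondrial genes have a median of 6.21 FPKM and cytosolic genes of 35.1 FPKM, and calls in both directions occur across the levels.

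Among the 37 genes, 16 amino acids had both a cytosolic and a mitochondrial gene. This gives 18 pairs, since FARSA and FARSB share FARS2, TARS and TARSL2 share TARS2, and EPRS was paired with EARS2 and with PARS2. Pairs that share a gene are not independent. The cytosolic level divided by the mitochondrial level within each library asks how the balance of a pair changed. In CTR this ratio ran from 0.627 for TARSL2 to TARS2 up to 35.6 for SARS to SARS2, with a median of 5.89. The groups did not overlap for 13 of the 18 pairs, with a lower ratio in miR-8485 for 8 and a higher ratio for 5. Among single genes tested, the groups did not overlap for 32.5% with miR-8485 above CTR and for 34.0% below. The share among ratios of other gene pairs was not computed, so these counts do not set the synthetase pairs apart. An exact two-sided permutation test of 3 against 3 libraries cannot go below 0.1, and these 13 pairs reached that value (adjusted p = 0.138 over the 18 pairs).

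The pairs that shifted furthest toward the mitochondrial enzyme were those for isoleucine, cysteine and methionine. The log2 ratio of IARS to IARS2 was -0.29, -0.16 and -0.15 in CTR and -1.76, -1.75 and -1.69 in miR-8485. IARS thus went from near the IARS2 level to well below it, with a linear ratio of 0.870 in CTR and 0.301 in miR-8485. The log2 ratio of CARS to CARS2 was 0.70, 0.61 and 0.88 in CTR and -0.23, -0.21 and -0.20 in miR-8485. Here CARS was the higher gene in every control library and CARS2 in every mimic library. The ratio of MARS to MARS2 went from 2.99 to 1.94 and that of YARS to YARS2 from 1.09 to 0.816. The ratio shifted furthest the other way for VARS, TARSL2 and AARS. The log2 ratio of VARS to VARS2 was 2.93, 2.91 and 2.95 in CTR and 3.68, 3.72 and 3.69 in miR-8485, a linear ratio of 7.63 against 13.0. The ratio of TARSL2 to TARS2 went from 0.627 to 1.04, while that of TARS to TARS2 went from 7.79 to 6.67. The ratio of AARS to AARS2 went from 8.60 to 13.6. EPRS to PARS2 went from 6.89 to 5.36, with no overlap, and EPRS to EARS2 overlapped (6.07 against 6.63). In 5 pairs both genes were called and in opposite directions, namely CARS, MARS and YARS down with their mitochondrial partners up, and AARS and VARS up with theirs down. In 4 pairs both were called in the same direction, with the pairs of HARS and NARS and that of EPRS and PARS2 up and the pair of RARS down. Of the remaining pairs, 8 had 1 gene called and the pair of FARSA had none.

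**Figure D4:**
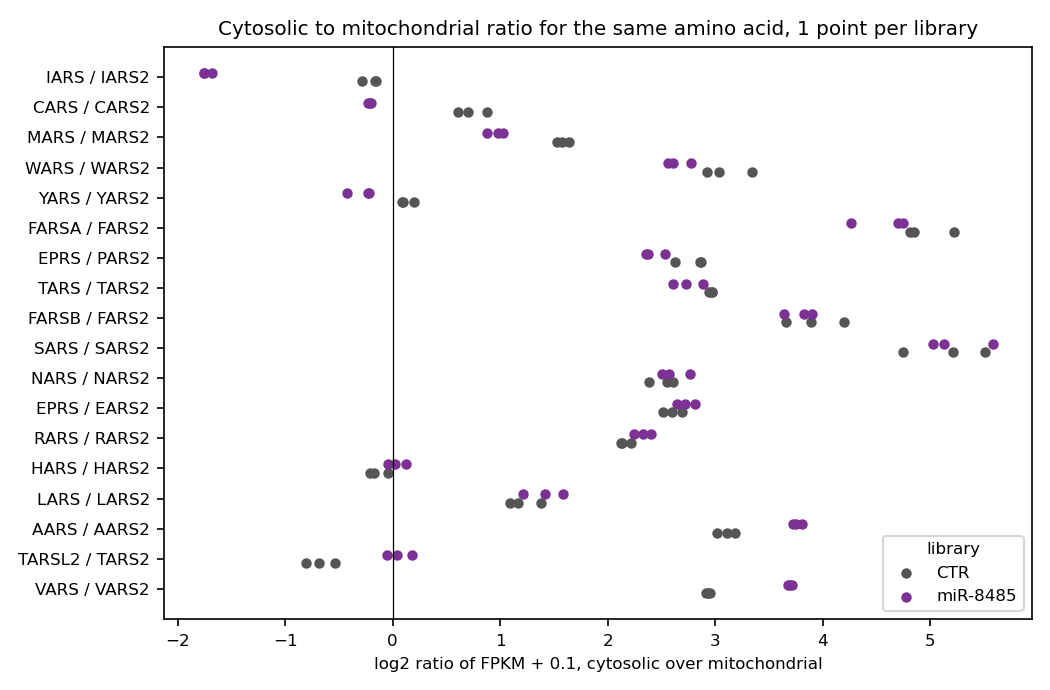
Log2 ratio of the cytosolic to the mitochondrial synthetase gene of the same amino acid in each library, CTR and miR-8485 marked apart, for 18 pairs. The isoleucine pair goes from a mean of -0.20 to -1.73 and the valine pair from 2.93 to 3.70.

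The cytosolic calls were also counted by enzyme class, leaving EPRS aside because it joins an enzyme of each class. Of 9 class I genes, LARS and VARS were upregulated, QARS was not called, and 6 were downregulated (IARS, MARS, CARS, WARS, RARS and YARS), with a median log2 fold change of -0.18. Of 11 class II genes, 7 were upregulated (AARS, FARSB, HARS, KARS, NARS, SARS and TARSL2), GARS and TARS were downregulated, and DARS and FARSA were not called, with a median of 0.23. The background of all genes tested was 29.1% up and 30.5% down. With the gene length trend removed 3 class I genes remained downregulated, and without miR-8485 replicate 1 there were 4. Among mitochondrial genes, class I had 3 up, 2 down and 4 not called, and class II had 3 up, 1 down and 2 not called. The difference between the classes was not tested.

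The 8 cytosolic genes of the multi-synthetase complex were split, with EPRS, KARS and LARS upregulated, IARS, MARS and RARS downregulated, and DARS and QARS not called. Each direction held 37.5% of them, against 29.1% up and 30.5% down among all genes tested. The median log2 fold change of the complex genes was 0.02. The scaffold gene AIMP2 rose from 16.8 ± 0.234 to 26.7 ± 0.903 FPKM (log2 fold change 0.67, standard error 0.04, limma adjusted p = 2.01e-05). AIMP1 and EEF1E1, the other scaffold genes, had log2 fold changes of -0.16 and -0.13 and did not pass the threshold. Of 14 partner genes, which act on tRNA or help the enzymes, 12 passed the filter and 5 were upregulated (41.7%, against 29.1% of all genes tested). Besides AIMP2 these were TRNT1, which adds the CCA end to tRNA and rose from 3.25 ± 0.329 to 5.81 ± 0.427 FPKM, GATB, DTD1 and SEPSECS. Downregulation was called for 0 partner genes by limma and 0 by voom on recovered fragments, with 2 at an unadjusted limma p under 0.05 (30.5% of all genes tested were down). There were 4 down and 2 up on the TPM scale. There were 2 down and 5 up by median-of-ratios scaling or with the gene length trend removed, 1 down and 1 up with a filter at 5 FPKM, and up to 1 down and 3 to 5 up when a library was left out. Without the filter 3 were up.

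ATF4 and genes known to respond to it moved both ways too. ATF4 fell from 126 ± 6.79 to 90.8 ± 2.13 FPKM (log2 fold change -0.47, standard error 0.05, limma adjusted p = 0.000181). Of the 12 genes of this list, 11 passed the filter, 5 fell (45.5%, against 30.5% of all genes tested), namely ATF4, CHAC1, MTHFD2, SHMT2 and SLC7A11, and 3 rose (27.3%, against 29.1%), namely PSPH, SESN2 and TRIB3. SLC7A11, the cystine transporter subunit, had a log2 fold change of -1.41 and TRIB3, a pseudokinase, of 0.58. ASNS, the asparagine synthetase, was below the filter, with 0.456 FPKM in CTR and 0.524 FPKM in miR-8485.

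The DNA word TGATGNAA, and TTNCATCA on the other strand, is of the kind that ATF4 binds as a dimer with C/EBP proteins. It was searched on both strands in promoters of 300 bases, from 250 before to 50 after the start (RefSeq, GRCh38.p14), and was chosen after the values were seen. Of the 37 genes, 30 matched a promoter, and AARS2, DARS, LARS, TARSL2, VARS, VARS2 and YARS did not. The word was thus not searched in YARS, a downregulated cytosolic gene, or in LARS, TARSL2 and VARS, which are upregulated cytosolic genes. AARS2 and VARS2, both downregulated mitochondrial genes, and DARS, which was not called, were not searched either. The word occurred in 8 of the 30 matched genes (26.7%), 7 cytosolic and 1 mitochondrial. It occurred in 4.46% of the 27305 genes with a promoter in the table and 3.62% of its 35116 promoters. Those genes were not filtered by expression, unlike the tested genes set beside the 3′ UTR word. The windows are shown because 5 of the 8 downregulated cytosolic genes hold the word, each on the strand of its gene with the word in capitals:
IARS: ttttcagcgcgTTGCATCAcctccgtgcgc
TARS: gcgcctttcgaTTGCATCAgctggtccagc
MARS: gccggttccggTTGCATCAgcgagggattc
GARS: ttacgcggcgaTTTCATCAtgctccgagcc
CARS: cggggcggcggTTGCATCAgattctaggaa
NARS: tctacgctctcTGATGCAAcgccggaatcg
AARS: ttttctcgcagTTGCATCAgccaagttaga
YARS2: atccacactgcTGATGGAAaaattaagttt

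These windows lie at chr9:92293692-92293721 for IARS, chr5:33440956-33440985 for TARS, chr12:57488053-57488082 for MARS and chr7:30594834-30594863 for GARS. The others are chr11:3057407-3057436 for CARS, chr18:57621804-57621833 for NARS, chr16:70289675-70289704 for AARS and chr12:32756076-32756105 for YARS2. Of the 8 genes, IARS, TARS, MARS, GARS and CARS were downregulated and NARS, AARS and YARS2 were upregulated. Among the 9 matched cytosolic genes without the word, 5 were upregulated, 2 downregulated and 2 not called. Genes without a matched promoter are not in these counts. Among all genes tested, 29.1% were upregulated and 30.5% downregulated. No test was made of the counts, and a match describes the letters only.

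Gene spans overlap an expressed gene on the opposite strand for 11 of the 37 genes, and it is not given in the sources used here whether strand was used in counting. HARS and HARS2 share 437 bases head to head, MARS overlaps DDIT3, CARS2 overlaps ING1, and YARS2 overlaps DNM1L over 18161 bases. DDIT3 had a log2 fold change of 0.07 and was not called. The part of such shared fragments in the values of these genes was not tested.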

How the data were processed

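RNA-seq libraries of HCT116 cells (3 CTR, 3 miR-8485) were grouped by the sample labels, and 0 columns were left without a sample. The authors used fastp for trimming, HISAT2 2.0.5 for mapping to hg38 and featureCounts 1.5.0-p3 for counting fragments, versions per the submitters' processing notes. The annotation version and the use of strand are not given in the sources used here. The values deposited by the authors were FPKM, scaled to gene length and library total, beside the gene length in bases (another column deposited by the authors). Fragments recovered from the FPKM gave the depth, 17473874 to 18480047 per library.

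Differential expression was tested with limma 3.58.1 in R 4.3.3, two-sided, with a variance trend, on log2(FPKM + 0.1), for the 12349 genes whose mean FPKM reached 1. P-values were adjusted by Benjamini-Hochberg over all of them. The pseudocount makes the fold changes of low genes understated. Ratios within libraries were compared by exact permutation. Python 3.11.15 was used for other steps.

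Simulated libraries of the CTR against miR-8485 comparison had 12414 genes tested. There limma recovered 68.4% of 98 genes changed by 0.5 and 94.8% of 96 changed by 1 on the log2 scale, with 9 false calls. Few genes were changed in the simulation and all had the same dispersion, whereas 59.6% of genes were called in the data. These rates therefore do not carry over to the calls made here, and no change smaller than 0.5 was simulated. The alternatives were other pseudocounts, filters, scalings, trends, voom, a replicate block, a fold threshold, a cytosolic set without GARS, KARS and TARSL2, and each library left out. The GC trend alternative was chosen after seeing the data. The gene set and the lists were chosen with earlier results of these data known. All 37 genes were named, with values per library for up to 4 of the largest called changes per direction and compartment and for the highest gene of each class, and IARS2 was added as the partner of IARS.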

Additional observations from a re-analysis of the deposited data

How the results depend on the processing

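Of the 27 called synthetase genes, 14 were called in all 18 alternative fits and 16 in every fit that tested them (AARS2 and TARSL2 fell under the filter at 5 FPKM). Of the 27, 23 were called in every fit with a library left out, and 0 changed sign. Rescaling to TPM gave 6 cytosolic and 3 mitochondrial genes up, 1 class I cytosolic gene up, and medians of -0.082 (cytosolic) and 0.12 (mitochondrial). All genes tested then had 2613 calls up and 4725 down, against 3593 and 3769. Without the gene length trend, 5 cytosolic genes were down, 3 of them class I, 9 mitochondrial genes were up (also 9 with voom, against 6), the cytosolic median was 0.075 and the difference of the medians -0.12. Without the GC trend, the cytosolic median was 0.14, the difference -0.075, 1 class I cytosolic gene was up, RARS and VARS lost their calls, and DARS, FARSA and IARS2 gained one. A pseudocount of 1 gave a mitochondrial median of 0.18. A filter at 5 FPKM left 2303 up and 2417 down among all genes, because fewer genes were tested. Requiring a log2 fold change of 0.5 left 1789 up and 1856 down, with 1 cytosolic gene up and 1 down, 2 mitochondrial genes up and 1 down, 0 class I up and 1 down, and 1 class II up and 0 down. Leaving out each library gave 9 to 10 cytosolic genes up and 6 to 8 down, 5 to 7 mitochondrial genes up and 3 down, 4 to 6 class I down and 2 up, 6 to 7 class II up and 2 down, 3102 to 3579 of all genes up and 3348 to 3640 down, cytosolic medians of 0.000910 to 0.065, mitochondrial medians of 0.14 to 0.24, and differences of -0.225 to -0.101. Values of genes not called reversed for DARS (-0.11 on TPM, -0.0035 by median of ratios, -0.048 without miR-8485 replicate 2 and up to 0.040 without another library), QARS (-0.082 on TPM, -0.016 without the GC trend, -0.0074 without CTR replicate 1 and up to 0.065 without another library), IARS2 (-0.011 on TPM) and FARSA (0.010 without miR-8485 replicate 2 and down to -0.074 without another library). Ratios reversed for SARS to SARS2 (-0.11 without CTR replicate 1, -0.078 without miR-8485 replicate 2, up to 0.27 without CTR replicate 3) and FARSB to FARS2 (0.012 without CTR replicate 3, down to -0.26 without CTR replicate 1), 3 of 144 ratio values. The cause of these shifts and reversals was not tested.

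Deviations of same-numbered libraries correlated at -0.06 to 0.07, and those of differently numbered libraries at -0.09 to 0.06. Pairing by replicate number was thus not seen, though 3 libraries per group cannot exclude it. With the replicate block, 10 cytosolic genes were up and 8 down, as without it, and among partner genes 3 were up and 1 down. SARS2 had 41 to 77 fragments per library.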
